A study of Mus musculus with 12 samples.

Results

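The genes described here are 36 interferon-stimulated genes, listed by name, and they were followed across 12 expression arrays. A probe named 35 of the 36. Xaf1 was the exception and has no value here. All 35 were well above background on at least 1 array, and 29 were so on all 12, out of 20915 genes tested in the whole series. The 35 genes had 56 probes in all, and 16 genes had 2 or more. For each gene the brightest probe on average was used.

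The arrays were single-colour Agilent whole mouse genome arrays, each hybridised with RNA from a culture of neural progenitor cells of strain 129/Ola. Each of 10 cultures carried a retroviral open reading frame of 1 transcription factor: Crebzf, Esx1, Etv6, Gatad2b, Hmga2, Nfxl1, Pax6, Pdx1, Sox11 or Zfp451. A control culture carried EGFP, and another was labelled mock. The open reading frames sat in pMXs-IRESNeo, a retroviral vector that also carries a neomycin resistance gene, and about 95% of cells expressed the insert. G418, which kills cells without that gene, was added at 24 h and cells were harvested at 72 h. For the mock culture the labels name no virus and no G418. With 1 array a group, no p-value was computed and no difference has a replicate check. Slide 1 held Pax6, Hmga2, EGFP and mock. Slide 2 held Gatad2b, Etv6, Esx1 and Nfxl1, and slide 3 held Crebzf, Pdx1, Sox11 and Zfp451. Slides 2 and 3 held neither control, so a whole slide and whatever its 4 factors share cannot be told apart.

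Interferons are secreted proteins that cells release on sensing viral nucleic acid. Type I interferons bind the receptor pair Ifnar1 and Ifnar2, whose kinases Jak1 and Tyk2 phosphorylate Stat2. Stat2 and Irf9 belong to the factor ISGF3, which binds the interferon-stimulated response element in the promoters of many antiviral genes. Irf1, Irf3 and Irf7 can bind elements of the interferon-stimulated type directly. The products block viral entry, translation and replication, tag proteins with Isg15, sense RNA and DNA, or recruit leukocytes.

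Promoter sequences are shown because many of the genes hold this element and the list was not chosen by it. RefSeq promoters (build GRCm38.p6, 250 bases before to 50 after an annotated start) were given for 26 of the 36 genes. The core of the response element was searched as GAAANNGAAA on both strands, which on the reverse strand reads TTTCNNTTTC. It was found in 16 of the 26 genes (61.5%) and in 1079 of 27025 genes of the whole table (3.99%). Sequences run 5′ to 3′ on the gene's strand, up to the base before the start at most except in Ddx58, and capitals mark the matches. The first 3 are the 250 bases before the start of Isg15, Ifit1 and Ifit3, which hold 3, 2 and 2 matches. They lie at chr4:156200819-156201068, chr19:34640639-34640888 and chr19:34583279-34583528.
Isg15: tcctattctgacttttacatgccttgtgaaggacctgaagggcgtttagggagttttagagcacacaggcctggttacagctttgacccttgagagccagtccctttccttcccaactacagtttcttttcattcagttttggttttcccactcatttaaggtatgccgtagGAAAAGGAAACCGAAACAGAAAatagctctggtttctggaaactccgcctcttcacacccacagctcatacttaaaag
Ifit1: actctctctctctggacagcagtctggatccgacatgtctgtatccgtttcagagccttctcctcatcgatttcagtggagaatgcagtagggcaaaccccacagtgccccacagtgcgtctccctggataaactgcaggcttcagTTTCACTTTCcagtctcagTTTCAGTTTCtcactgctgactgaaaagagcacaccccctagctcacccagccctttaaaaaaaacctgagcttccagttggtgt
Ifit3: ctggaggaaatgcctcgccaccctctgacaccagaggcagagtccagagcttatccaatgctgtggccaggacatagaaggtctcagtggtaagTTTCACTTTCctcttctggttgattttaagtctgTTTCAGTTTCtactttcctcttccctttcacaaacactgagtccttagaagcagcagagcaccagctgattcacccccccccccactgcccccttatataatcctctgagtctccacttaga

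In Isg15 the 3 matches overlapped in 1 run of GAAA boxes, with first bases at -78, -72 and -66, counted from the start at 0. In Ifit1 they began at -104 and -85, and in Ifit3 at -156 and -122. Shorter windows of 7 other genes that were called higher on the Pax6 array, meaning at least 2-fold above both controls, show how the element sits in them: Gbp2 at chr3:142620584-142620633, Gbp3 at chr3:142559979-142560034, Oas1a at chr5:120907526-120907565, Rsad2 at chr12:26456543-26456592, Igtp at chr11:58199502-58199551, Cxcl10 at chr5:92349073-92349122 and Ddx58 at chr4:40239804-40239833. In Ddx58 the match began at base 2 after the start.
Gbp2: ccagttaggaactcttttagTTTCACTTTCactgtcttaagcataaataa
Gbp3: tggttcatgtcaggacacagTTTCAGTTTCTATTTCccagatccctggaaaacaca
Oas1a: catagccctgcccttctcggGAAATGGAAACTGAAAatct
Rsad2: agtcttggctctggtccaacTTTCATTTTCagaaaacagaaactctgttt
Igtp: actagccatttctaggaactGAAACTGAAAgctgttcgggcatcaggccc
Cxcl10: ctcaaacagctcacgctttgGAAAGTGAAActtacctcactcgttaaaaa
Ddx58: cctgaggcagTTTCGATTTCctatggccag

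A match did not go with a call in every gene. Bst2 (chr8:71537567-71537622), Irgm1 (chr11:48871421-48871470), Oas3 (chr5:120777705-120777754) and Stat2 (chr10:128270256-128270305) held the core and were called on no array with the probes used. A second Irgm1 probe was called higher on Esx1 (1.14). Eif2ak2, whose window is not shown, was also called on no array and held a match that began at base 18 after the start.
Bst2: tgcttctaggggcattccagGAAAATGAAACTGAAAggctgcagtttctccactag
Irgm1: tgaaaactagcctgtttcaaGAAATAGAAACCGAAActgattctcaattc
Oas3: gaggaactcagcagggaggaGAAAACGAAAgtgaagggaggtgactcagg
Stat2: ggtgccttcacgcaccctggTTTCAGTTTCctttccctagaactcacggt

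Of the 16 genes with a match, 11 were called higher on Pax6, and their median log2 difference was 1.77. Of the 10 genes without one, 9 had a probe, 4 were called higher, and the median was 0.76. Of all genes, 10.7% were called higher on that array. Genes with no promoter given (Oas2, Mx1, Mx2, Usp18, Dhx58, Ccl5, Rtp4, Iigp1, Parp14 and Zbp1) are outside this split. Each of them was called higher on Pax6, with differences from 2.03 for Parp14 to 4.24 for Iigp1. The split therefore cannot show whether a match goes with a call over the whole list. The gamma-activated site, searched as TTCNNNGAA, was found in 7 of the 26 genes (26.9%) against 9.55% of all genes, and the NF-kappaB motif in 4 (15.4%) against 5.14%. In Bst2 the gamma-activated site overlapped both the NF-kappaB match and the first response element match. A match is a run of letters and not a measured site.

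**Figure D1:**
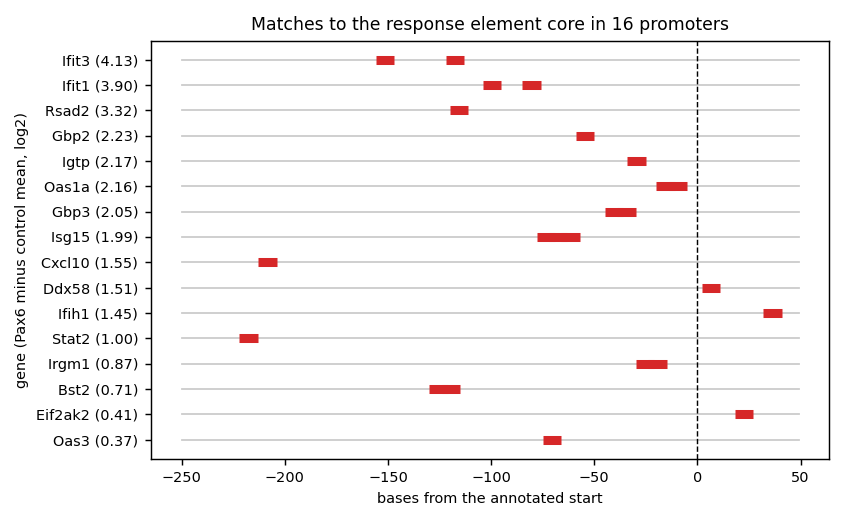
Positions of matches to the response element core in the 16 genes that hold one. Each grey line is a promoter window, the x axis gives bases from the annotated start (dashed line), red bars are matches, and the number beside a gene is its log2 difference on the Pax6 array. Matches lie on both sides of the start in this set, and genes with small differences, such as Oas3 and Eif2ak2, hold them too.

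Levels are log2 processed signal minus the array's own 75th percentile, which is therefore at 0. A difference is a level minus the mean of the EGFP and mock levels. A gene was called higher where it lay at least 2-fold above both controls and was well above background on the factor array. It was called lower where it lay at least 2-fold below both and was well above background on both controls. On the Pax6 array 25 of 35 genes were called higher and 0 lower. The background there was 10.7% of all genes higher and 6.4% lower. On Esx1 21 genes were called higher (10.3% of all genes), on Crebzf 21 (9.83%), on Pdx1 20 (9.86%), on Sox11 20 (9.74%) and on Zfp451 18 (9.6%). None was called lower on these arrays, where 7.43% of all genes on Esx1, 6.28% on Crebzf, 6.63% on Pdx1, 6.93% on Sox11 and 6.31% on Zfp451 were.

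On Hmga2, Gatad2b and Nfxl1 no gene of the list was called in either direction. Few genes of any kind were called there. The shares called higher were 0.43% on Hmga2, 0.631% on Gatad2b and 0.296% on Nfxl1, and the shares called lower were 0.569%, 1% and 1.17%. On Etv6 none was called higher and 3 were called lower (Iigp1, Oasl2 and Parp14), against 1.05% and 0.837% of all genes. Etv6 shared no slide with the controls. Centred within slides, its genes called lower were 0, and with normexp, another background correction, 1. The same centring took the genes called higher on slide 3 to 2 on Crebzf and 0 on Pdx1, Sox11 and Zfp451, and gave 23 on Esx1. The 25 on Pax6 could not change, since Pax6 shared slide 1 with both controls, so centring is no check of them.

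The median difference of the 35 genes was 2.11 on Pax6, where all genes had -0.08. It was 1.36 on Esx1 (all genes -0.20), 1.45 on Crebzf (-0.09), 1.26 on Pdx1 (-0.20), 1.29 on Sox11 (-0.20) and 1.13 on Zfp451 (-0.09). The medians were close to that of all genes on Gatad2b (-0.03 against 0.02) and a little below it on Hmga2 (-0.11 against -0.04) and Nfxl1 (-0.14 against -0.01). On Etv6 the median was -0.35 against -0.02. The 10 differences share the same 2 control arrays. EGFP and mock themselves differed by less than 2-fold for all 35 genes, where 1.36% of all genes differed by more. The median size of that difference was 0.13, and the largest were 0.93 for Zbp1, at least, since mock was not well above background, and 0.92 for Ifi44.

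**Figure D2:**
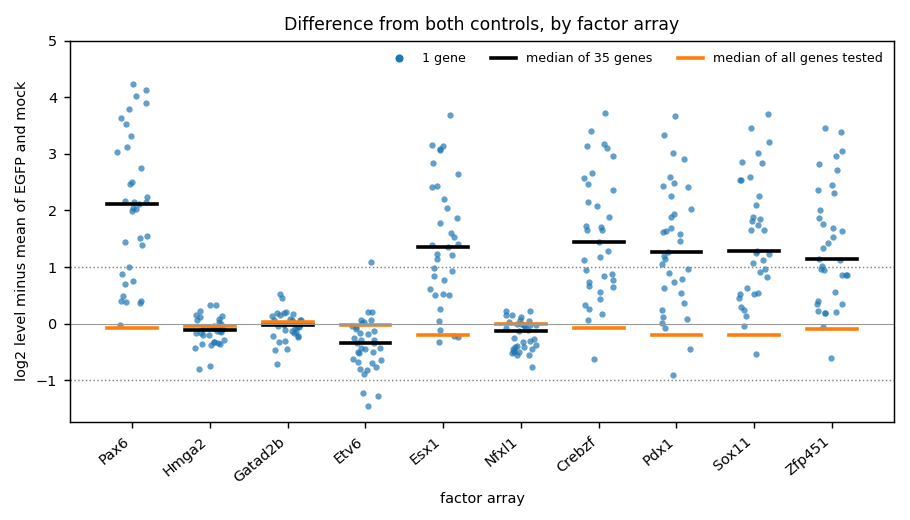
Log2 difference from the mean of EGFP and mock for each of 35 genes (blue points) on each factor array, with the median of the genes (black bar) and of all genes tested (orange bar). Dotted lines mark 2-fold. The medians are 2.11 on Pax6 and between 1.13 and 1.45 on Esx1, Crebzf, Pdx1, Sox11 and Zfp451, and lie below 0 on the other 4 arrays.

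**Figure D3:**
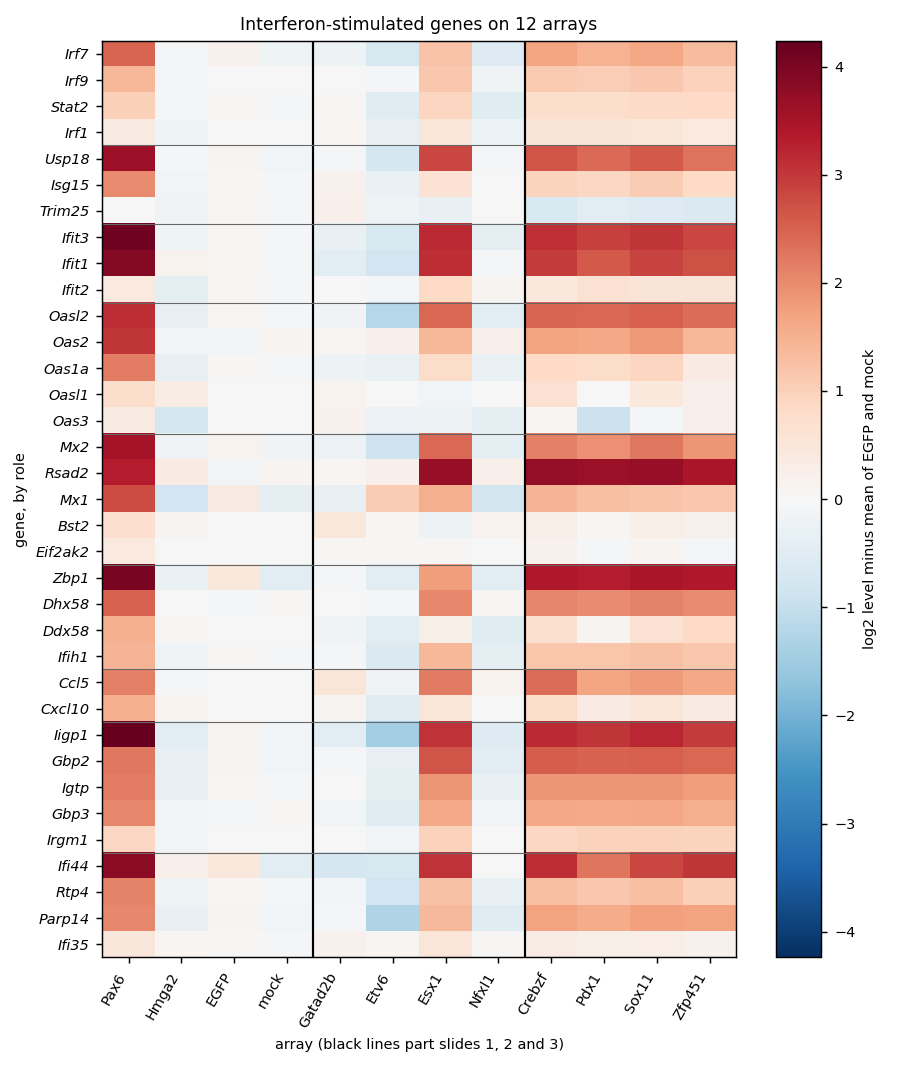
Log2 level minus the mean of EGFP and mock (colour) for 35 genes, ordered by role and then by the Pax6 difference, on 12 arrays ordered by slide. The Pax6 column is the darkest red for most genes, and on slide 2 the Esx1 column is red where the other 3 are pale or blue.

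For 30 of the 35 genes the lowest level among Pax6, Esx1, Crebzf, Pdx1, Sox11 and Zfp451 lay above the highest of the other 6 arrays, as it did for 22.9% of all genes. The other 5 genes were Bst2, Eif2ak2, Oas3, Oasl1 and Trim25, with the probes used. A second Ifit2 probe and a further Ddx58 probe, both well above background on every array, did not show this separation. That Ddx58 probe lay at -5.35 on Pdx1 and at -5.34 on Hmga2. The separation was also absent from dimmer probes of Ifih1, Irgm1, Mx1, Oas2, Parp14 and Rsad2 that were not well above background on every array. Called higher on all 6 of those arrays were 18 genes (6.73% of all genes): Ccl5, Dhx58, Gbp2, Gbp3, Ifi44, Ifih1, Ifit1, Ifit3, Igtp, Iigp1, Irf7, Mx2, Oas2, Oasl2, Parp14, Rsad2, Usp18 and Zbp1. These 6, called the high arrays from here on, were picked out after their values were seen and lay on all 3 slides. On slide 2 alone, Esx1 was set against Gatad2b and Nfxl1. There 22 of 35 genes lay at least 2-fold above both (11.1% of all genes), with a median of 1.60 (all genes -0.14).

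Across the 35 genes, the Esx1 difference from Gatad2b and Nfxl1 on slide 2 and the Pax6 difference from EGFP and mock on slide 1 had a Pearson correlation of 0.88 and a Spearman correlation of 0.89. No array enters both. Over 16081 genes measured above background on every array, the same correlations were 0.92 and 0.89, so the likeness was not particular to this list. Genes are not independent replicates, and the slides share the array design and the probes.

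Markers of other cells differed on these arrays too. Of 8 fibroblast markers, 6 were called higher on Pax6, where 10.7% of all genes were. The summed level of the 8 (in units of the 75th percentile signal) was 232 there and 227 to 243 on Esx1, Crebzf, Pdx1, Sox11 and Zfp451, against 94.8 to 106 on the other 6. Postn, a matrix protein, was 7.0 higher on Pax6 and Thy1, a surface protein, 3.68. Of 6 astrocyte markers, S100b, Aldoc and Apoe were called higher on Pax6 (1.91, 1.15 and 2.41), where 10.7% of all genes were. Gfap, Aqp4 and Gja1 differed downward there without a call, and the median of the 6 was 0.44. The summed level of that list, in which bright markers weigh most, was 26.8 to 33.3 on the 6 high arrays and 10.6 to 12.4 on the other 6. None of 4 pluripotency markers was called, with a summed level of 0.52 to 0.64 on the high arrays and 0.34 to 0.37 on the other 6. Their part in the result was not tested. For the labelled cell type, 7 of 10 neural progenitor markers, among them Nes, Sox2 and Vim, were well above background on all 12 arrays, while Fabp7 was so on 5. That flag was met on all 12 by 16081 of the 20915 genes tested, so it cannot bear out a cell type. Of the 10 neural progenitor markers, Slc1a3 was called higher on Pax6 (1.37) and Nes lower (-1.51), with a median of -0.12. Among 10 microglial and macrophage markers, Itgam, Tyrobp and Adgre1 were not well above background on any array. The summed level of that list ran from 1.02 to 1.32 over all arrays. Aif1 was 1.44 higher on Pax6, where the median of the 7 measured was -0.05. On Esx1, Crebzf, Sox11 and Zfp451 1 of the 7 was called higher and 1 lower, and on Pdx1 2 higher and 1 lower. In RNA of a whole culture, fewer cells of a type and less RNA per cell cannot be told apart.

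Among the signalling members, Irf7, the factor that amplifies interferon production, had the largest difference on Pax6 (probe at chr7:137682028-137682378, mm7). Irf7 stood at -2.82 on Pax6, -4.08 on Esx1, -3.64 on Crebzf, -3.83 on Pdx1, -3.64 on Sox11 and -3.95 on Zfp451. The other levels were -5.12 on EGFP, -5.47 on mock, -5.33 on Hmga2, -5.52 on Gatad2b, -5.85 on Nfxl1 and -5.98 on Etv6. The 2 sets did not overlap, and Pax6 was the highest of all, 5.55-fold above the control mean. Irf9, the DNA-binding subunit of ISGF3, was called on Pax6, Esx1, Crebzf, Pdx1 and Sox11, with differences of 1.40, 1.15, 1.12, 1.05 and 1.13, and missed the rule on Zfp451 at 0.97. Its second probe was called on no array, with 0.97 on Pax6. Stat2, another subunit of ISGF3, differed by 1.0 on Pax6, just short of the rule, and was called on no array. It differed by 0.73 to 0.92 on the 5 other high arrays (1.66-fold to 1.90-fold), and by -0.50 on Etv6 and -0.51 on Nfxl1.

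Irf1, an activator induced by interferon gamma, had the smallest Pax6 difference of this group and was abundant everywhere (probe at chr11:53733970-53734029). Irf1 levels were 4.70 on Pax6, 4.85 on Esx1, 4.88 on Crebzf, 4.87 on Pdx1, 4.84 on Sox11 and 4.73 on Zfp451. On the remaining arrays they were 4.35 on EGFP, 4.29 on mock, 4.15 on Hmga2, 4.40 on Gatad2b, 4.06 on Nfxl1 and 3.98 on Etv6. The spread over 12 arrays was under 1 log2 unit, no call was made, and Pax6 was below the other 5 high arrays.

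In the Isg15 conjugation group, Usp18, the protease that removes Isg15 and dampens the receptor, differed most (probe at chr6:121295796-121295855). Usp18 read -0.02 on Pax6, -0.82 on Esx1, -0.99 on Crebzf, -1.25 on Pdx1, -1.07 on Sox11 and -1.35 on Zfp451. It read -3.55 on EGFP, -3.76 on mock, -3.73 on Hmga2, -3.69 on Gatad2b, -3.71 on Nfxl1 and -4.42 on Etv6 elsewhere. The 2 sets were more than 2 log2 units apart, Pax6 was 12.5-fold above the control mean, and Etv6 was the lowest array. Isg15, the ubiquitin-like protein itself, was called on Pax6 only. Isg15 levels were 2.01 on Pax6, 0.63 on Esx1, 0.97 on Crebzf, 0.91 on Pdx1, 1.10 on Sox11 and 0.87 on Zfp451. Against these stood 0.11 on EGFP, -0.06 on mock, -0.08 on Hmga2, 0.22 on Gatad2b, 0.02 on Nfxl1 and -0.26 on Etv6. Pax6 was 3.97-fold above the control mean and the other 5 high arrays 1.53-fold to 2.11-fold, with Sox11 at 2.11-fold missing the rule against EGFP alone. The file places the Isg15 probe on chromosome 17 in mm7, while the RefSeq gene is on chromosome 4. Which copy it reads was not tested.

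Trim25, a ubiquitin ligase that acts on the sensor Ddx58, ran the other way (probe at chr11:89128930-89128989). It stood at 2.39 on Pax6, 2.10 on Esx1, 1.79 on Crebzf, 1.97 on Pdx1, 1.88 on Sox11 and 1.81 on Zfp451. The other arrays gave 2.46 on EGFP, 2.38 on mock, 2.26 on Hmga2, 2.62 on Gatad2b, 2.40 on Nfxl1 and 2.23 on Etv6. The 4 arrays of slide 3 and Esx1 were the lowest, while with this probe Pax6 lay between the 2 controls. A second, dimmer Trim25 probe differed by -0.94 on Pax6, with no call, and was called lower on Esx1, Crebzf, Pdx1, Sox11 and Zfp451, with differences of -1.44, -1.20, -1.35, -1.38 and -1.31.

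The Ifit genes encode proteins that bind foreign RNA ends and block its translation. Ifit3 had the second largest Pax6 difference among the 29 genes well above background on every array (probe at chr19:34289919-34289978). Its levels were 1.59 on Pax6, 0.61 on Esx1, 0.56 on Crebzf, 0.37 on Pdx1, 0.48 on Sox11 and 0.28 on Zfp451. In the others they were -2.45 on EGFP, -2.63 on mock, -2.74 on Hmga2, -2.84 on Gatad2b, -2.92 on Nfxl1 and -3.18 on Etv6. Pax6 was 17.5-fold above the control mean and about 1 log2 unit above the next array, Esx1. Ifit1 (probe at chr19:34350610-34350669) lay at -0.30 on Pax6, -1.07 on Esx1, -1.24 on Crebzf, -1.62 on Pdx1, -1.34 on Sox11 and -1.5 on Zfp451. Elsewhere it lay at -4.11 on EGFP, -4.30 on mock, -4.06 on Hmga2, -4.65 on Gatad2b, -4.28 on Nfxl1 and -5.02 on Etv6. The fold on Pax6 was 15.0, and Etv6 was again the lowest array. Ifit2 (probe at chr19:34277058-34277117) was called nowhere, although it lies in the same gene cluster on chromosome 19. Ifit2 gave -1.34 on Pax6, -0.90 on Esx1, -1.31 on Crebzf, -1.11 on Pdx1, -1.20 on Sox11 and -1.19 on Zfp451. The rest were -1.68 on EGFP, -1.81 on mock, -2.12 on Hmga2, -1.78 on Gatad2b, -1.62 on Nfxl1 and -1.81 on Etv6. With this probe Esx1 was the highest and Pax6 the lowest of the 6 high arrays. A second, dimmer Ifit2 probe, well above background on every array, was also called nowhere but was highest on Pax6, at -2.94. It lay at -3.91 on Pdx1, below EGFP at -3.64 and mock at -3.54. Ifit genes have near copies, and the values of this family are uncertain to that extent.

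The 2-5A synthetases make the messenger that activates RNase L, and Oasl1 and Oasl2 are relatives. Oasl2 was the 1 gene of the family well above background on every array (probe at chr5:114132992-114133051). Oasl2 lay at 0.5 on Pax6, -0.20 on Esx1, -0.15 on Crebzf, -0.19 on Pdx1, -0.08 on Sox11 and -0.26 on Zfp451. Lower values were read elsewhere, -2.56 on EGFP, -2.69 on mock, -2.98 on Hmga2, -2.78 on Gatad2b, -3.11 on Nfxl1 and -3.85 on Etv6. It was 8.74-fold above the control mean on Pax6 and 2.33-fold below it on Etv6. Oas2 was well above background only on Pax6, Esx1, Crebzf, Pdx1, Sox11 and Zfp451, at -3.63 on Pax6, -5.27 on Esx1, -4.97 on Crebzf, -5.03 on Pdx1, -4.82 on Sox11 and -5.25 on Zfp451. It was not well above background on the other 6, so it was at least 8.23-fold higher on Pax6 and at least 2.63-fold to 3.61-fold higher on the other 5, with a second Oas2 probe not well above background on any array. Oas1a, called on Pax6 only, differed by 2.16 there and by 0.35 to 0.91 on the other 5. It was dim, with levels of -4.02 on Pax6 and -5.83 to -5.26 on the other 5. Oas1a was not well above background on Etv6 and Nfxl1, and close copies of the gene exist.

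Oas3 had the smallest Pax6 difference of the family, 0.37, and was dim throughout. It was not well above background on Hmga2, Etv6, Nfxl1 and Pdx1, and its other 8 levels lay between -6.27 on Esx1 and -5.68 on Pax6. Oasl1 was dim as well, not well above background on Nfxl1, with differences of -0.12 on Esx1 to 0.76 on Pax6 among the high arrays. Neither was called anywhere.

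Among other antiviral effectors well above background on every array, Mx2, a dynamin-like GTPase, had the largest Pax6 difference (probe at chr16:97944478-97944537). Mx2 levels read 0.62 on Pax6, -0.5 on Esx1, -0.77 on Crebzf, -0.98 on Pdx1, -0.66 on Sox11 and -1.05 on Zfp451. The others read -2.75 on EGFP, -3.07 on mock, -3.05 on Hmga2, -3.14 on Gatad2b, -3.33 on Nfxl1 and -3.80 on Etv6. Pax6 was 11.6-fold above the control mean and more than 2-fold above each other array. Its neighbour Mx1 was the exception of the list at the Etv6 end (probe at chr16:97829378-97829437). Mx1 stood at -2.78 on Pax6, -4.01 on Esx1, -4.09 on Crebzf, -4.28 on Pdx1, -4.31 on Sox11 and -4.40 on Zfp451. The remaining levels were -5.14 on EGFP, -5.93 on mock, -6.34 on Hmga2, -5.87 on Gatad2b, -6.30 on Nfxl1 and -4.45 on Etv6. On Etv6 it was 2.12-fold above the control mean, within 2-fold of EGFP, and at least 2-fold above both Gatad2b and Nfxl1 of its slide. Where it was called higher, on Pax6, Esx1 and Crebzf, the folds were 6.75, 2.88 and 2.73. A second, dimmer Mx1 probe was called on Pax6 only. Neither control was well above background with it, so its 0.25 on Etv6 cannot show whether Mx1 was higher there.

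Rsad2, or viperin, which makes a chain-terminating nucleotide, was not well above background on EGFP, mock, Gatad2b, Etv6 and Nfxl1 (probe at chr12:24278814-24278873). It was measured at -3.35 on Pax6, -2.99 on Esx1, -2.94 on Crebzf, -3.0 on Pdx1, -2.97 on Sox11 and -3.21 on Zfp451, and at -6.33 on Hmga2. Rsad2 was at least 9.97-fold higher on Pax6, a log2 difference of 3.32, against 3.46 to 3.73 on the other 5, so here Pax6 was the lowest of the 6. The other 2 Rsad2 probes were well above background on 6 arrays each and were called on none. Their Pax6 differences were at least 0.05 and at least 0.73, since neither control was well above background. Eif2ak2, the RNA-activated kinase that stops translation, had the smallest difference of this group (probe at chr17:77153382-77153441). It read 1.64 on Pax6, 1.29 on Esx1, 1.41 on Crebzf, 1.16 on Pdx1, 1.37 on Sox11 and 1.17 on Zfp451. Elsewhere the readings were 1.26 on EGFP, 1.21 on mock, 1.26 on Hmga2, 1.29 on Gatad2b, 1.21 on Nfxl1 and 1.29 on Etv6. All 12 lay within 1 log2 unit. Bst2, or tetherin, which holds budding virus at the cell surface, had differences of 0.71 on Pax6, 0.45 on Gatad2b and -0.21 on Esx1, and was not called.

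All 4 sensors were called higher on Pax6. Zbp1, a sensor of Z-form nucleic acid, had the largest difference (probe at chr2:172950998-172951057). Zbp1 lay at -1.98 on Pax6, -4.24 on Esx1, -2.60 on Crebzf, -2.68 on Pdx1, -2.55 on Sox11 and -2.62 on Zfp451. It was at -5.55 on EGFP, -6.29 on Hmga2 and -6.07 on Gatad2b, and not well above background on mock, Etv6 and Nfxl1. It was at least 16.3-fold above the control mean on Pax6, with 1 of the 2 controls measured. Esx1 stood apart from the 4 arrays of slide 3, with a difference of 1.77 against 3.33 to 3.45. Dhx58, a helicase that modulates the RNA sensors, differed by 2.51 on Pax6 and by 2.01 to 2.09 on the other 5, with -0.09 on Etv6. A second, dimmer Dhx58 probe was well above background on 6 arrays. That probe was called on Pax6 (at least 1.49) and Pdx1 (at least 1.12). It was called on none of Esx1, Crebzf, Sox11 and Zfp451, with lower bounds of 0.87 to 1.08. Neither control was well above background with it.

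Ifih1, or MDA5, a sensor of long double-stranded RNA, had the smallest difference on Pax6 among the sensors (probe at chr2:62528113-62528172). Ifih1 levels were -1.0 on Pax6, -1.04 on Esx1, -1.27 on Crebzf, -1.26 on Pdx1, -1.21 on Sox11 and -1.32 on Zfp451. Those of the other arrays were -2.39 on EGFP, -2.51 on mock, -2.60 on Hmga2, -2.49 on Gatad2b, -2.84 on Nfxl1 and -3.07 on Etv6. Pax6 and Esx1 were nearly equal. Its second probe was well above background on 1 array. Ddx58, or RIG-I, was called on Pax6 only with the probe used, with a difference of 1.51 against 0.11 to 0.86 on the other 5. A dimmer Ddx58 probe gave differences of 1.29 to 1.45 on those 5 arrays and was called higher on each.

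The chemokines recruit T cells and other leukocytes. Ccl5 (probe at chr11:83595699-83595758) lay at -0.18 on Pax6, -0.12 on Esx1, 0.04 on Crebzf, -0.64 on Pdx1, -0.52 on Sox11 and -0.69 on Zfp451. Other levels were -2.35 on EGFP, -2.30 on mock, -2.40 on Hmga2, -1.80 on Gatad2b, -2.18 on Nfxl1 and -2.49 on Etv6. Crebzf was the highest array, 5.17-fold above the control mean, ahead of Esx1 at 4.61-fold and Pax6 at 4.42-fold. Cxcl10 (probe at chr5:92334002-92334061) read -0.79 on Pax6, -1.83 on Esx1, -1.57 on Crebzf, -1.98 on Pdx1, -1.82 on Sox11 and -1.99 on Zfp451. Readings of the rest were -2.32 on EGFP, -2.36 on mock, -2.20 on Hmga2, -2.21 on Gatad2b, -2.31 on Nfxl1 and -2.86 on Etv6. It was called on Pax6 only, at 2.93-fold, where the other 5 lay between 1.27-fold and 1.70-fold.

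The immunity-related and guanylate-binding GTPases attack the vacuoles of intracellular parasites. Iigp1 had the largest Pax6 difference and the lowest Etv6 difference among the 29 genes well above background on every array (probe at chr18:60781938-60781997). Iigp1 was read at -0.48 on Pax6, -1.65 on Esx1, -1.55 on Crebzf, -1.70 on Pdx1, -1.51 on Sox11 and -1.75 on Zfp451. The low set was -4.61 on EGFP, -4.82 on mock, -5.15 on Hmga2, -5.18 on Gatad2b, -5.27 on Nfxl1 and -6.17 on Etv6. On Pax6 it was 18.9-fold above and on Etv6 2.73-fold below the control mean. Close copies of Iigp1 exist in the mouse genome, so its value is uncertain to that extent. Irgm1, a regulator of this family, had the smallest difference (probe at chr11:48822320-48822379). Irgm1 levels lay at 2.49 on Pax6, 2.61 on Esx1, 2.51 on Crebzf, 2.59 on Pdx1, 2.59 on Sox11 and 2.57 on Zfp451. At lower values lay 1.63 on EGFP, 1.62 on mock, 1.5 on Hmga2, 1.61 on Gatad2b, 1.60 on Nfxl1 and 1.5 on Etv6. The 2 sets did not overlap, but the folds stayed under 2 and no call was made with this probe.

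Gbp2 (probe at chr3:142530694-142530753) was higher on the other 5 arrays than on Pax6. Gbp2 gave 0.74 on Pax6, 1.16 on Esx1, 1.09 on Crebzf, 1.0 on Pdx1, 1.04 on Sox11 and 0.95 on Zfp451. Lower readings were -1.38 on EGFP, -1.60 on mock, -1.85 on Hmga2, -1.57 on Gatad2b, -1.94 on Nfxl1 and -1.84 on Etv6. The folds were 4.70 on Pax6 and 5.45 to 6.27 on the other 5. Gbp3, read by a probe that the file calls Gbp4, differed by 2.05 on Pax6 and 1.53 to 1.65 on the other 5. Igtp differed by 2.17 on Pax6 and 1.76 to 1.88, almost level over the 5.

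In the last group, Ifi44, a cytoplasmic protein of uncertain role, had the largest difference (probe at chr3:151631285-151631344). Ifi44 stood at 1.5 on Pax6, 0.79 on Esx1, 0.85 on Crebzf, -0.03 on Pdx1, 0.56 on Sox11 and 0.76 on Zfp451. Other arrays gave -1.83 on EGFP, -2.75 on mock, -2.07 on Hmga2, -3.01 on Gatad2b, -2.29 on Nfxl1 and -2.98 on Etv6. It was 13.8-fold above the control mean on Pax6, and EGFP and mock were themselves 0.92 apart. Parp14, an ADP-ribosyltransferase, was called higher on 6 arrays and lower on Etv6 (probe at chr16:35507119-35507178). Parp14 lay at 1.92 on Pax6, 1.25 on Esx1, 1.61 on Crebzf, 1.47 on Pdx1, 1.62 on Sox11 and 1.59 on Zfp451. Elsewhere it was -0.01 on EGFP, -0.21 on mock, -0.43 on Hmga2, -0.18 on Gatad2b, -0.62 on Nfxl1 and -1.39 on Etv6. The Etv6 fold below the control mean was 2.42, and another Parp14 probe, well above background on every array, was called lower there too, with a difference of -1.44. A dimmer probe, well above background on 6 arrays, was called on Pax6 and Esx1 only. Etv6 and mock were not well above background with it, so its 0.02 on Etv6 cannot show whether Parp14 was lower there. Rtp4, a chaperone of membrane receptors, differed by 2.11 on Pax6, 1.02 to 1.29 on the other 5 and -0.80 on Etv6. It missed the rule on Zfp451. Ifi35, a leucine zipper protein, had the smallest differences (probe at chr11:101566736-101566795). Ifi35 read 2.02 on Pax6, 2.04 on Esx1, 1.86 on Crebzf, 1.78 on Pdx1, 1.82 on Sox11 and 1.72 on Zfp451. The other readings were 1.60 on EGFP, 1.48 on mock, 1.61 on Hmga2, 1.72 on Gatad2b, 1.58 on Nfxl1 and 1.61 on Etv6. No array was 2-fold from the controls.

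**Figure D4:**
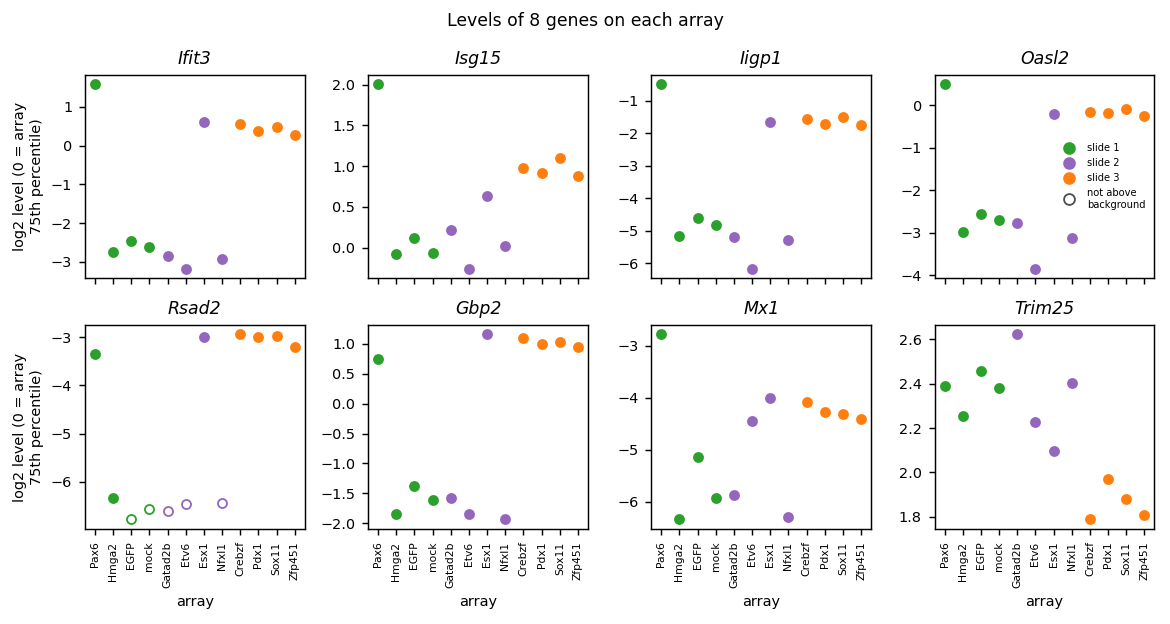
Log2 levels of 8 genes on the 12 arrays, ordered and coloured by slide, with open circles where the probe was not well above background; each panel has its own y axis. Ifit3, Isg15, Iigp1 and Oasl2 are highest on Pax6 and lowest on Etv6, Rsad2 and Gbp2 are not highest on Pax6, Mx1 is raised on Etv6 against its slide, and Trim25 is lowest on slide 3.

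The Pax6 array was the highest of 12 for 27 of the 35 genes, as it was for 15.8% of all genes. Among the 29 genes well above background on every array it was highest for 22 (15.7% of such genes). The 8 others were Ccl5, Gbp2, Ifi35, Ifit2, Irf1, Irgm1, Rsad2 and Trim25, with the probes used. A second Ifit2 probe was highest on Pax6. Pax6 exceeded each other array at least 2-fold for 5 genes, Iigp1, Mx1, Mx2, Oas1a and Oas2, which 0.411% of all genes did. Set against the highest of the other 11 arrays, Pax6 differed by a median of 0.40 (all genes -0.38), from -0.44 for Ifit2 to 1.25 for Oas1a. The excess on Pax6 was uneven. It was largest for Oas1a, Mx1, Oas2, Mx2, Iigp1, Ifit3 and Isg15 (0.91 for Isg15), and smallest in size for Ifi35 (-0.02), Ifih1 (0.04) and Stat2 (0.08). No other culture with Pax6 was on the arrays, and Pax6, EGFP and mock shared slide 1.

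The range of the 4 arrays of slide 3 had a median of 0.24 over the 35 genes. It was not compared with the range over all genes. Oas3 had the largest, at least 1.14, since it was not well above background on Pdx1.

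The Etv6 array was the lowest of 12 for 18 genes, against 8.99% of all genes. All 18 were among the 29 genes well above background on every array, where the share over such genes was 11.1%. They were Ccl5, Cxcl10, Dhx58, Gbp3, Ifih1, Ifit1, Ifit3, Igtp, Iigp1, Irf1, Irf7, Irgm1, Isg15, Mx2, Oasl2, Parp14, Rtp4 and Usp18. None of them was at least 2-fold below each other array, which no gene tested was (0%). The margin below the next array was largest for Iigp1 (-0.90), Parp14 (-0.77), Oasl2 (-0.74) and Usp18 (-0.66). It was between -0.09 and 0 for Igtp, Ccl5, Irf1, Dhx58 and Irgm1. The differences from the control mean were below 0 for 28 of 35 genes, as for 52.8% of all genes.

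Against Gatad2b and Nfxl1, the arrays of its slide on which no gene of the list was called, Etv6 differed by a median of -0.28 (all genes 0.01). It lay below both for 23 of 35 genes (32.9% of all genes), 0 of them by 2-fold or more on both (0.0143% of all genes), with Parp14 the lowest at -0.99, Iigp1 at -0.94 and Oasl2 at -0.90. Mx1 lay 1.63 above their mean and was the 1 gene at least 2-fold above both (1.04% of all genes). The fibroblast markers' summed level on Etv6 was 98.7, between the 98.1 of mock and the 105 of EGFP, and 1 of the 8 markers, Dcn, was called higher there.

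**Figure D5:**
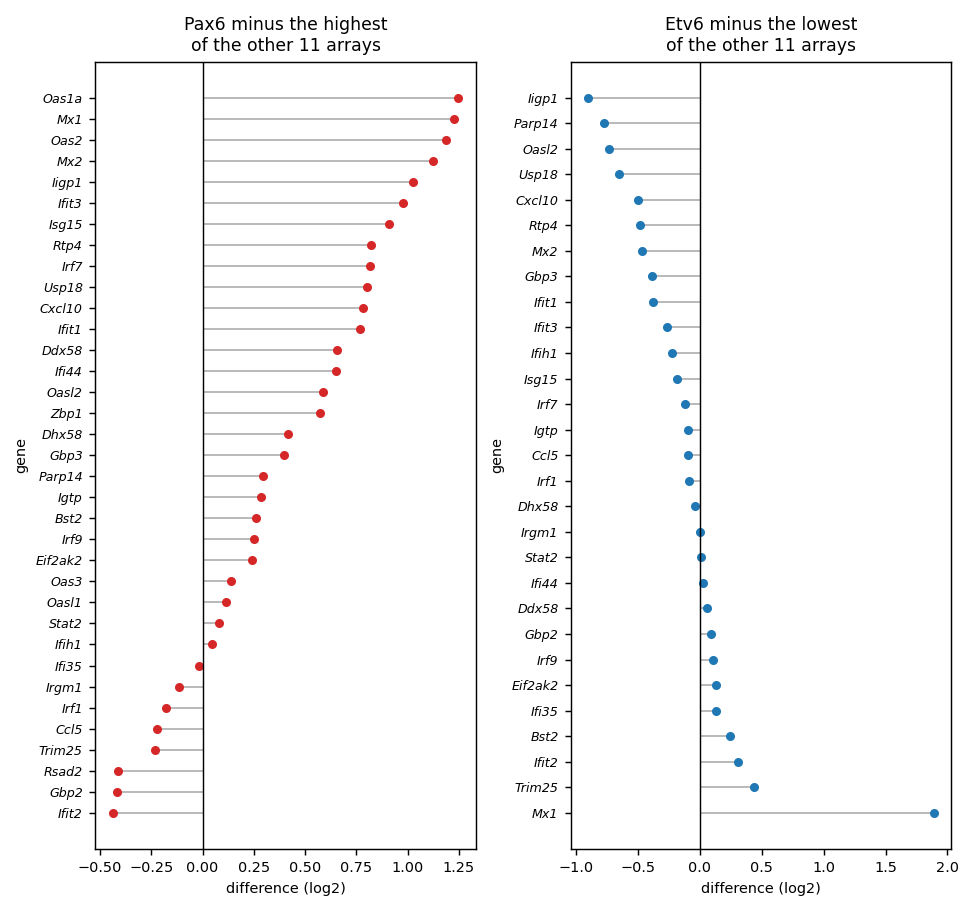
Left, the Pax6 level minus the highest of the other 11 arrays for 35 genes; right, the Etv6 level minus the lowest of the other 11 arrays for the 29 genes well above background on all 12 (log2). On the left 27 genes lie above 0, with Oas1a at 1.25, and on the right 18 lie below 0, with Iigp1 at -0.90 and Mx1 far above at 1.89.

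The upstream steps of the pathway were described from lists of their own. Of 16 ligands listed, 14 had a probe and 9 were well above background somewhere. Ifnb1, the first interferon made after infection, was well above background on 1 array, Ifna2, Ifne and Tnf on 1 each and Ifnl3 on 4. Ifng, Ifna4, Ifna11, Ifnk and Il1b were not well above background on any. No ligand was called on Pax6, Esx1 or Etv6. Of all genes, 10.7%, 10.3% and 1.05% were called higher there, and 6.4%, 7.43% and 0.837% lower. Finding none among 9 was therefore not particular to this list. Ifna1 was called higher on Nfxl1 (1.67), Ifna2 on Zfp451 (at least 1.14, both controls not well above background), and Ifnab was called lower on Crebzf, Sox11 and Zfp451 (-1.09, -1.12 and -1.15). Ifnz and Il6, measured on all arrays, differed by -0.41 and 0.52 on Pax6 and by -0.54 and -0.82 on Etv6.

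All 6 receptor genes were well above background on every array and none was called. At most 10.7% of all genes were called higher on any factor array, and at most 7.43% lower. Finding none among 6 was therefore not particular to this list. The Pax6 differences were 0.39 for Ifnar1 and 0.54 for Ifnar2, the type I pair, 0.01 for Ifngr1 and 0.73 for Ifngr2, the type II pair, and 0.85 for Ifnlr1 and 0.58 for Il10rb, the type III pair. On Etv6 they ran from -0.46 for Ifnlr1 to 0.15 for Il10rb.

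Of 21 signalling genes, 19 were measured, and 3 were called higher on Pax6, where 10.7% of all genes were. These were Stat3 (1.08), the transcription factor Irf5 (1.54) and Ikbke, a kinase that phosphorylates Irf3 and Irf7 (1.71). The receptor kinases Jak1 and Tyk2 had -0.11 and 0.89. Ikbke was also the 1 signalling gene called on Etv6 (1.05% of all genes higher), at 1.27. It lay there at -2.77, against -4.09 on EGFP, -3.99 on mock, -4.12 on Gatad2b and -4.13 on Nfxl1. On Esx1 Stat3 (1.19) and Ikbke (1.15) were called, and on Crebzf Ikbke alone (1.40). Ikbke was also called on Pdx1 with Tyk2 (1.40 and 1.13), on Sox11 with Irf5 (1.41 and 1.10) and on Zfp451 with Tyk2 (1.33 and 1.01). On the 6 high arrays 9.6% to 10.7% of all genes were called higher, so counts of 1 to 3 among 19 were not particular to this list.

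Of 7 inhibitors, Socs3, which blocks receptor kinases after cytokine signals, was called higher on Pax6, Esx1, Crebzf, Pdx1, Sox11 and Zfp451, by 1.21 to 1.5, beside 9.6% to 10.7% of all genes. Socs3 differed by -0.16 on Etv6. Socs1, its relative for interferon signals, differed by -0.22 on Pax6 and 0.42 on Etv6 and was not called.

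Of 49 interferon targets outside the list 42 were measured, and 20 were called higher on Pax6, 17 on Crebzf and 16 each on Esx1, Pdx1, Sox11 and Zfp451, beside 9.6% to 10.7% of all genes, with 0 on Hmga2, Gatad2b, Etv6 and Nfxl1. Trim30a was called lower on Nfxl1 (-1.13) and Gbp5 on Pdx1 (-1.64). Their median difference was 1.0 on Pax6 and -0.14 on Etv6. Among those called higher on Pax6 were Psmb8, a subunit of the immunoproteasome, at 3.69, Gbp6 at 3.08 (at least) and Trim30a at 2.89. Others differed downward without a call, such as Ifitm1, at -0.74 to -0.51 on Esx1, Crebzf, Pdx1, Sox11 and Zfp451 and 0.05 on Pax6, while Gbp5 was at -1.27 to -0.19 on the 5 high arrays where it was not called. None of 9 measured control genes was called on any array, and their median difference was -0.24 on Pax6 and -0.07 on Etv6.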

How the data were processed

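The authors deposited the scanner output of 12 arrays. Per the file headers, Agilent Feature Extraction 10.7.3.1 made it, and each spot holds a background-subtracted intensity (gProcessedSignal) on the linear scale, a well-above-background flag and probe positions in mm7. The deposited table of values equals that intensity for 45018 of 45018 probes on each array, and no scaling between arrays was seen in it. Spots flagged as outliers were left out (171 probes lost), repeated spots were averaged, and log2 values were set against the array's 75th percentile, which lay between 823 and 1026 units. Values under the lowest well-above-background level of an array (-6.96 to -6.45) were raised to it. A difference against a group below background is given as "at least", with the dim side at the higher of this floor and its own value. Saturation was seen on no array, and 62.6% to 69.1% of probes passed the background flag. Precision is limited by the number of arrays.

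Probes were named through RefSeq by accession (22951 probes), symbol (6659) or synonym (3109), and otherwise as the file names them (8455). With 1 array a group no test was run. Lists, members and rules were chosen with earlier results of these data known. Levels are given in full for the genes with the largest and smallest Pax6 difference in each role, the 6 largest Pax6 and 4 lowest Etv6 differences, and genes called lower, and of the pathway lists for ligands, receptors and called signalling genes. 1 gene of the signalling list is not reported here and was left out of its counts. Isg15, Mx1, Rsad2, Gbp2 and the other genes described by differences were added after their values were seen. Alternatives were normexp (offset 50, limma 3.58.1 in R 4.3.3), quantile scaling, another percentile, no floor, the mean of all probes, only genes above background on all 12, each control alone, centring within slides, and 1.5-fold and 3-fold rules. The calling script (Python 3.11.15, pandas 2.3.3) was tested on simulated data.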

Additional observations from a re-analysis of the deposited data

Results flagged for a closer look

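The probes that were not used for a gene showed a signal above both controls in 7 cases where the probe used was not called. A dimmer Ddx58 probe was 1.44 higher than the control mean (log2) on Esx1, 1.45 on Crebzf, 1.29 on Pdx1, 1.39 on Sox11 and 1.35 on Zfp451, where the probe used gave 0.26, 0.67, 0.11, 0.63 and 0.86. A further Ddx58 probe was 1.07 higher on Esx1. An Irgm1 probe was 1.14 higher on Esx1, where the probe used gave 0.98. Over 21 such probes and 10 factor arrays, 158 of 210 calls were the same as with the probe used, 40 were made with the probe used only, 12 with the other probe only, and 0 were opposite.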

How the results depend on the processing

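No replicate could be left out, since each group held 1 array. Of 336 alternative values, 298 kept their direction and stayed within the spread allowed (1.5 times for a count, 0.26 for a median, the SD over the genes of EGFP minus mock). Among them were the Pax6 and Hmga2 values under centring, which could not change because both arrays shared slide 1 with the controls. Others were counts of 0 that stayed 0 under every alternative. Examples are genes called lower on Pax6, Esx1 and Sox11 and genes called higher on Hmga2, Gatad2b and Nfxl1. The total therefore overstates how much was put to the test. Centring within slides, which removes what the 4 arrays of a slide share, brought the genes called higher to 2 on Crebzf, 0 on Pdx1, 0 on Sox11 and 0 on Zfp451 and those called lower on Etv6 to 0, with medians of 0.57 on Crebzf, 0.44 on Pdx1, 0.49 on Sox11, 0.37 on Zfp451, 1.65 on Esx1 and 0.24 on Gatad2b, and it reversed Nfxl1 to 0.10. With normexp the medians were 1.34 on Pax6, 0.99 on Esx1 and 0.98 on Crebzf, and 1 gene was called lower on Etv6. With EGFP alone the genes called lower were 5 on Etv6, and 1 each on Hmga2, Gatad2b and Nfxl1, and the Crebzf median was 1.18. With mock alone the medians were 1.53 on Pdx1 and 1.58 on Sox11 and 1 gene was called higher on Etv6. The mean of all probes gave medians of 1.02 on Crebzf and 0.89 on Pdx1. Without the floor 1 gene each was called lower on Hmga2, Nfxl1 and Pdx1. The 1.5-fold rule called 7 genes lower and 1 higher on Etv6, 4 lower on Etv6 against Gatad2b and Nfxl1, and 1 lower each on Hmga2, Crebzf and Pdx1. The 3-fold rule called 12 higher on Esx1, 13 on Pdx1 and 0 lower on Etv6. Apart from centring and the fold rules' own construction, the cause of these shifts was not tested. Quantile scaling, the other percentile and the restriction to genes above background on all 12 moved no value past the spread, but the other percentile moved the median of all genes on Pax6 from -0.08 to 0.07 and on Pdx1 from -0.20 to -0.06. Signal over background limited Oas1a, Oas2, Oas3, Oasl1, Rsad2 and Zbp1, which were not well above background on every array.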
